A study of Mus musculus with 3 samples.

Results

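Malat1, Neat1, Meg3, Miat, Snhg11, Rian and Mirg are long non-coding RNAs that stay in the nucleus, which makes them prominent in single-nucleus libraries. These 7 genes were chosen by name as a set of nuclear transcripts. A row was present for 6 of them among the 31040 genes of the count table, and Rian was not analysed here. Nuclei were isolated from lumbar spinal cords of 12 mice at 90 days of age and sequenced singly (snRNA-seq), which gave 14662 nuclei and 206486779 UMIs (unique molecular identifiers, each tagging 1 captured RNA molecule). Of these mice, 6 were SOD1G93A, of the strain B6.Cg-Tg(SOD1*G93A)1Gur/J, which carries many copies of a human mutant SOD1 transgene and is a model of amyotrophic lateral sclerosis (ALS). The other 6 were C57BL/6J littermates without the transgene (WT). Each genotype had 3 females and 3 males, and the nuclei were run in 3 pools, A, B and C, each with 1 mouse of every sex and genotype marked by nuclear hashtags. The transgene is not restricted to a cell type, so that a difference in 1 type was measured in animals whose other types carried it too.

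Malat1 is a component of nuclear speckles, the bodies that store splicing factors, and is among the most abundant RNAs of most mammalian nuclei. Neat1 is the architectural RNA of paraspeckles, nuclear bodies that retain RNAs and hold RNA-binding proteins such as TDP-43. Meg3, Rian and Mirg are maternally expressed RNAs of the imprinted Dlk1-Dio3 region, where Rian and Mirg host small nucleolar RNAs and microRNAs, Miat (also called Gomafu) is a neuronal RNA that binds splicing factors, and Snhg11 is a host gene of small nucleolar RNAs used mostly by neurons.

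The 7 genes lie in 4 regions of the mouse genome (GENCODE M21 annotation of GRCm38, the build of the files). Meg3 (chr12:109541001-109571726, forward strand), Rian (chr12:109603940-109661716) and Mirg (chr12:109729764-109749460) lie in tandem within 208460 bases. Malat1 (chr19:5795690-5802672) and Neat1 (chr19:5824708-5845478), both on the reverse strand, are 22035 bases apart, and all 6983 bases of Malat1 are exonic. Miat is at chr5:112213228-112229395 on the reverse strand. Snhg11, at chr2:158375638-158386145 on the forward strand, goes against the label of the set, since this annotation types it as protein-coding. With the introns counted, the level in neurons per kilobase of gene span was 4087 CPM (UMIs of a gene per 1000000 UMIs of all genes) for Malat1, 325 for Snhg11, 273 for Meg3, 9.56 for Mirg, 6.78 for Miat and 1.88 for Neat1. UMIs count captured molecules and need not grow with gene length, so these values are a description and no measure of relative expression.

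The start regions of 3 abundant members are shown, since Meg3 and Snhg11 had nearly the same profile over cell types and Malat1 a different profile. They are 300 bases each from RefSeq on GRCm38.p6, written along the strand of the gene, with 3 motifs searched on both strands, the CRE TGACGTCA, the TATA box TATAAA and the GC box GGGCGG, in capitals. The Meg3 window (chr12:109540746-109541045) held a CRE from base 194 and overlapping TATA boxes from bases 222 and 226, and the windows of Snhg11 (chr2:158375463-158375762, forward strand) and Malat1 (chr19:5802623-5802922, reverse strand) held none of the 3.
Meg3: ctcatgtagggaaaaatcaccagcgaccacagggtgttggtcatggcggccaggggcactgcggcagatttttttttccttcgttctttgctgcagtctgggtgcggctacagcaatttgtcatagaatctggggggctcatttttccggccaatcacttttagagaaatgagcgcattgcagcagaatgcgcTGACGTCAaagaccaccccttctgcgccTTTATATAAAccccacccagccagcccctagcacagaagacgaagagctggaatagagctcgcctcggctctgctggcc
Snhg11: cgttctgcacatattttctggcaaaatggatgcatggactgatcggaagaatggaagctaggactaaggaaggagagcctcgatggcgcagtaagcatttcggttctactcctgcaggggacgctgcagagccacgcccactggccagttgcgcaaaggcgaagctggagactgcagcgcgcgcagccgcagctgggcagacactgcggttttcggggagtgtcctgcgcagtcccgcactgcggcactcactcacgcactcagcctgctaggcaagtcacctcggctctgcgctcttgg
Malat1: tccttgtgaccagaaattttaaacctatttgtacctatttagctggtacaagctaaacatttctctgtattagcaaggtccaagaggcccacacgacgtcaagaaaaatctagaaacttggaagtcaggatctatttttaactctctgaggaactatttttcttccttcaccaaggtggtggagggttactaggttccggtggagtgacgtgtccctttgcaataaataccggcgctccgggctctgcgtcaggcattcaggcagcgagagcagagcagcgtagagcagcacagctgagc

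The CRE was present in 1.79% of the 32851 mouse start regions of the same table, the TATA box in 13.6% and the GC box in 35.7%. The Meg3 window held 13 CpG dinucleotides, that of Snhg11 21 and that of Malat1 10, against a median of 7 over all windows. The table holds another Meg3 start (chr12:109545148-109545447), with 1 CpG and none of the 3 motifs. Those of Miat (25 CpG, GC box from base 27) and Mirg (10 CpG, none of the 3 motifs) are not shown.

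Mirg is named for the microRNAs it holds, and its span contains 26 mature microRNAs of RefSeq with 25 different seeds, that of Meg3 3 and that of Rian 6. Of those inside Mirg, 4 are shown with the seed, bases 2 to 8, in capitals, namely the only pair with the same seed and, as further examples, an arm each of the hairpins of miR-134 and miR-382. They lie at chr12:109735669-109735692, chr12:109739132-109739152, chr12:109734145-109734166 and chr12:109733781-109733802, all on the forward strand. The libraries did not measure small RNAs, so that the Mirg counts below are of the long transcript.
mmu-miR-453: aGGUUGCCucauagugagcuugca
mmu-miR-496a-5p: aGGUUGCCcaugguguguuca
mmu-miR-134-5p: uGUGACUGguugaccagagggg
mmu-miR-382-5p: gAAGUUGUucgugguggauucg

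Per mouse there were 548 to 2259 nuclei and 6411715 to 36668441 UMIs. The 10 cell types and 9 neuron sub-types are those assigned by the authors. Neurons made up 8800 nuclei, oligodendrocytes 2165, astrocytes 1555, Schwann and meningeal cells 1031, endothelial cells 501, microglia 223, oligodendrocyte precursors (OPCs) 181, ependymal cells 93 (in 11 mice), motor neurons 67 (1 to 11 per mouse) and fibroblasts 46 (in 10 mice). Sub-types are named by position (dorsal D, mid M, ventral V) and class (excitatory E, inhibitory I, cholinergic C, mixed M), and 1016 neurons were labelled unclear. Motor neurons had 1387 CPM of the markers Chat, Prph and Slit3, against 90.5 in neurons. The nuclei called microglia had 131 CPM of Cx3cr1, Csf1r, Ptprc and P2ry12, above the 19.8 to 80.4 of the other types, but also 2164 of neuron markers (Rbfox3, Grin1, Snap25 and Syt1), against 3322 in neurons, and 1670 of the oligodendrocyte markers Mbp, Mobp and Mog. Schwann and meningeal nuclei, with a median of only 1584 UMIs, had 4465 of the neuron markers. OPC nuclei had 1459 of the neuron markers and 1423 of the oligodendrocyte markers. The levels in microglia, Schwann and meningeal cells and OPCs are given under their names with that reserve. The Sod1 row, which also takes reads of the transgene, was 31.2 to 106 CPM in WT mice and 174 to 594 in SOD1G93A mice, with no overlap. Between pools, 30 nuclei shared a barcode sequence.

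Levels are given as CPM of the summed UMIs of a type in a mouse, with the mean over mice, and carry no test, because the types were drawn from clusters of the same values. Fewer nuclei of a kind and less RNA per nucleus cannot be told apart in such sums. The 6 RNAs together made up 4.07% ± 0.820 (SD, n = 12) of the UMIs of neurons, between 2.94% and 5.51%. The mean over types lay between 3.54% (OPCs) and 6.94% (fibroblasts).

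Malat1, the speckle RNA, was detected in every nucleus of the table's 10 types, and 1000 UMIs per nucleus were enough to find it in at least 99.9% of nuclei in each type. Shallower nuclei were left out of that share, and in Schwann and meningeal cells these were 229, with 802 used. Its mean level was lowest in neurons (28541 CPM), microglia (29615) and OPCs (29686). It was higher in astrocytes (36743), endothelial cells (39833), motor neurons (50355) and oligodendrocytes (53610), and highest in ependymal cells (60756) and fibroblasts (66236). The order depended on the scaling at both ends. With TMMwsp factors, which reduce the weight of composition, the last 2 types had 28965 and 28969 CPM and oligodendrocytes were highest at 60517. Neurons (34917) were then above microglia (33324), endothelial cells (31255) and OPCs (30170), and Schwann and meningeal cells were lowest at 25483. In the order without these factors, no neighbours kept their order in all mice. The 9 neuron sub-types lay close together, between 24491 CPM in ME and 31506 in VC.

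Malat1 also varied between mice. In neurons the female WT mice of pools A, B and C had 18357, 40894 and 18959 CPM and the male WT mice 38007, 35053 and 21180. The female SOD1G93A mice had 29876, 33223 and 25001 CPM and the males 30815, 26299 and 24825. The WT mice thus spanned both the lowest and the highest values, and all 6 SOD1G93A mice lay between them. Snhg11 in neurons followed the same split of the WT mice, with 2770, 2787 and 3095 CPM in the females of pools A and C and the male of pool C, and 4038 to 4531 in the other 3.

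Meg3, a maternally expressed RNA with growth-suppressing activity in cultured cells, was highest in neurons and motor neurons. It averaged 8378 CPM in neurons and 8183 in motor neurons, whose order differed between mice. Microglia (5547 CPM), Schwann and meningeal cells (4264) and OPCs (3726) followed, and motor neurons were above microglia in 12 of 12 mice. Ependymal cells had 2464 CPM, oligodendrocytes 2029, astrocytes 1697, fibroblasts 1567 and endothelial cells 679. Among the sub-types Meg3 was nearly flat, from 7883 CPM in DI to 9175 in ME.

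Snhg11 ranked the types in almost the same way, with 3413 CPM in neurons, 2725 in motor neurons, 2328 in microglia, 1537 in OPCs and 1310 in the Schwann and meningeal nuclei. The lowest levels were 281 CPM in endothelial cells, 563 in fibroblasts and 615 in astrocytes. Microglia were above OPCs in all 12 mice. Mirg, the microRNA host downstream of Meg3, had 197 CPM in motor neurons and 188 in neurons, and neurons were above microglia (138) in 12 of 12 mice. Mirg fell to 30.0 CPM in astrocytes and 8.97 in endothelial cells. For each 100 Meg3 UMIs there were 2.23 Mirg UMIs in neurons, between 2.05 and 2.48 in the single mice, and 1.80 in astrocytes. In sub-types Mirg was lowest in the dorsal classes, with 158 CPM in DI and 159 in DE, against 193 in unclear neurons, which were above DE in 12 of 12 mice, and 226 in VE.

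The Meg3 signal of glia moved with the neuron markers. For each 100 UMIs of the 4 neuron markers there were 258 Meg3 UMIs in neurons, 236 in oligodendrocytes, 266 in OPCs, 265 in microglia, 207 in endothelial cells and 190 in astrocytes. The ratio was 237 in ependymal cells and 233 in fibroblasts, and stood apart in Schwann and meningeal cells (83.6). In motor neurons it was 346, within the range of the neuron sub-types, which went from 191 in DI to 352 in ME. The Meg3 level itself went from 8378 CPM in neurons to 679 in endothelial cells. Neuron markers summed to 1459 CPM in OPCs, 920 in astrocytes, 853 in oligodendrocytes and 326 in endothelial cells, and none of these values is at 0. With 1000 UMIs drawn from each nucleus, Meg3 was found in 99.7% of neurons (unthinned 99.98%, median 12864 UMIs) and in 44.5% of endothelial nuclei (unthinned 96.6%, median 6963 UMIs), which left out 23 and 3 shallower nuclei. In astrocytes the quartile of nuclei with most UMIs had 0.258% of its UMIs on Meg3, against 0.0756% in the quartile below it, and in oligodendrocytes these shares were 0.269% and 0.0728%. The part of neuron RNA in the Meg3, Snhg11 and Mirg levels of glia was not tested.

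Neat1 had the reverse profile, low in neurons and high in glia. Fibroblasts had 1047 CPM, oligodendrocytes 578, microglia 385, astrocytes 342 and OPCs 275, and oligodendrocytes were above microglia in 12 of 12 mice. Fibroblasts, on 226 Neat1 UMIs, were above oligodendrocytes in only 5 of 10 mice, and with TMMwsp factors they had 485 CPM, below oligodendrocytes at 655. Ependymal cells had 147 CPM, endothelial cells 140, Schwann and meningeal cells 107, motor neurons 48.4 and neurons 39.1. At 1000 UMIs per nucleus Neat1 was found in 42.8% of oligodendrocytes (unthinned 85.3%, median 5786 UMIs), 26.6% of astrocytes and 2.06% of neurons (unthinned 16.3%). Per 100 neuron-marker UMIs there were 0.994 Neat1 UMIs in neurons, 2.03 in motor neurons and 2.38 in Schwann and meningeal cells. Ependymal cells had 17.6, OPCs 18.9 and microglia 19.3, and astrocytes, endothelial cells, oligodendrocytes and fibroblasts 37.7 to 135. Within neurons the unclear nuclei had 102 CPM and the named sub-types 12.1 (VI) to 35.2 (DE), and unclear nuclei were above DE in 11 of 12 mice.

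Miat differed between kinds of neurons. Motor neurons had 283 CPM and the other neurons 110, in that order in 12 of 12 mice, ahead of microglia (75.2) and with 10.5 in endothelial cells. In ependymal cells 0 of 252050 UMIs were Miat, which allows up to 11.9 CPM, and fibroblasts had 1 Miat UMI among 214721. These limits cover counting error only. Among the sub-types VE had 171 CPM, ME 135, VC 132 and VI 124, with unclear neurons at 112, VM at 107 and DE at 100. MI (73.5) was below DE in 12 of 12 mice and DI (41.0) below MI in 12 of 12. At 1000 UMIs per nucleus Miat was found in 24.9% of motor neurons, 14.4% of VE nuclei and 3.78% of DI nuclei (unthinned in every motor neuron nucleus and in 84.4% and 32.8% of the others, with medians of 53245, 19812 and 11763 UMIs), and in 1.40% of endothelial nuclei.

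**Figure D1:**
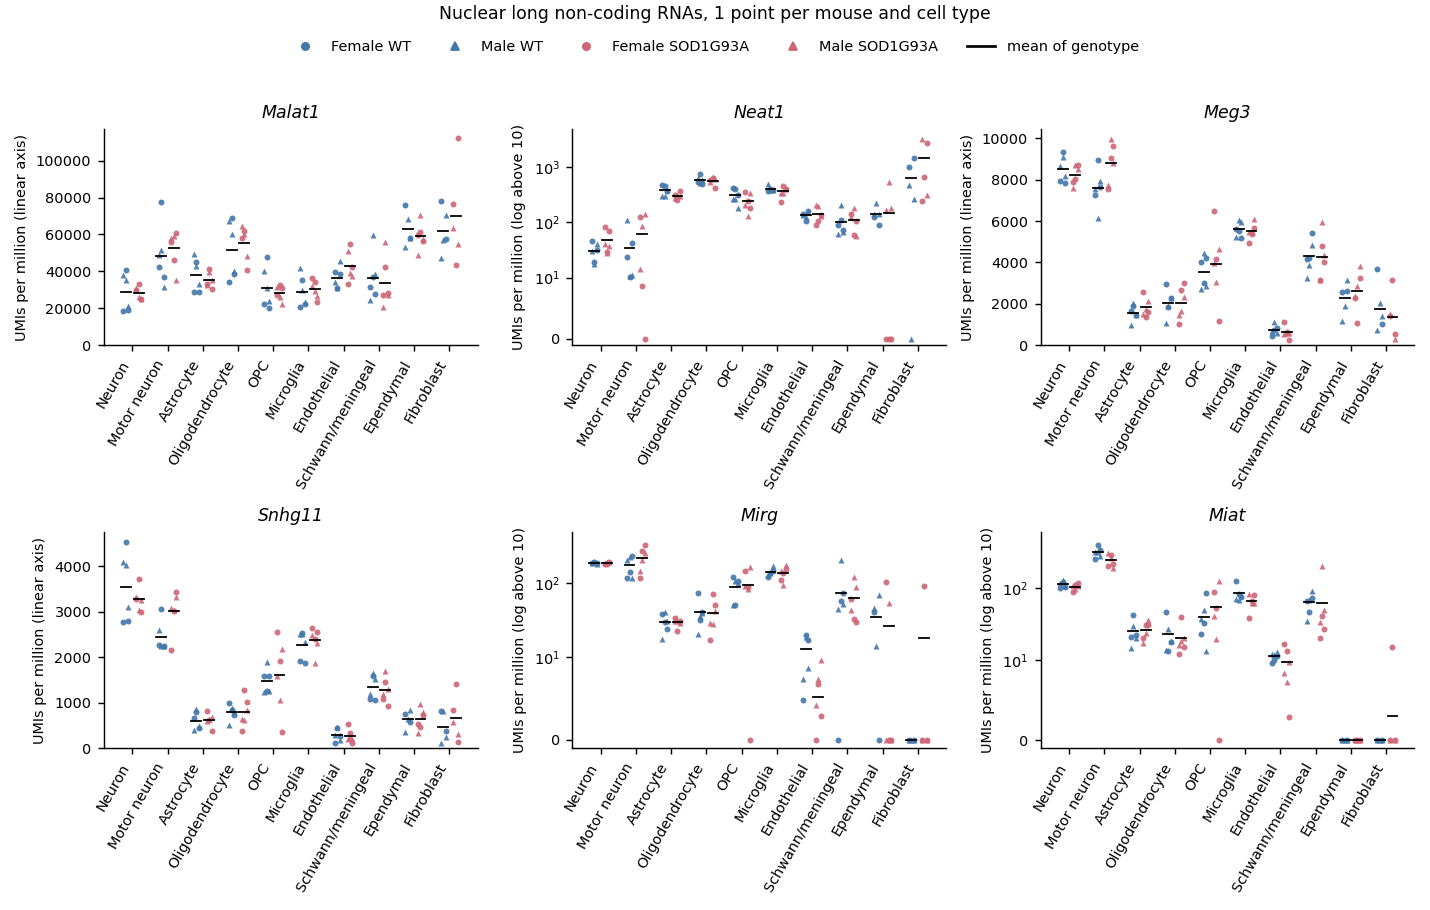
Level of each RNA (y axis, CPM, linear for Malat1, Meg3 and Snhg11 and logarithmic above 10 for the others) in the 10 cell types, with 1 point per mouse, circles for females, triangles for males and a bar at the mean of each genotype. Meg3 and Snhg11 are highest in neurons (means of 8378 and 3413) and lowest in endothelial cells, whereas Neat1 is lowest in neurons (39.1), and the genotypes overlap throughout.

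**Figure D2:**
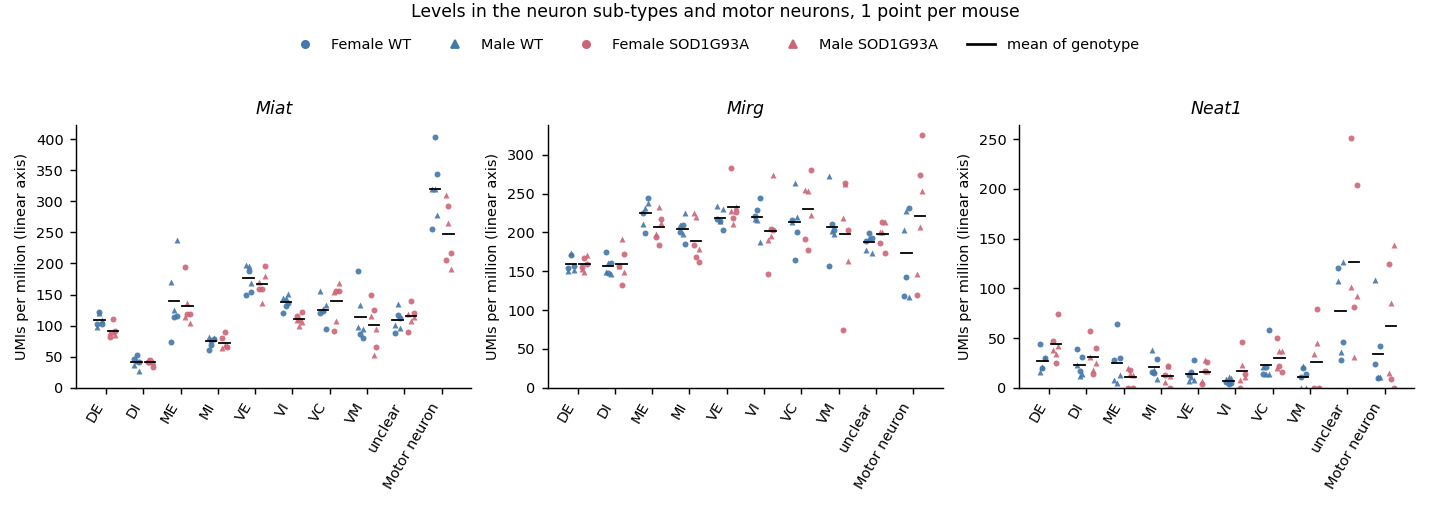
Level of Miat, Mirg and Neat1 (y axis, CPM, linear) in the 9 neuron sub-types and in motor neurons, with 1 point per mouse and a bar at the mean of each genotype. Miat steps from DI (mean 41.0) to VE (171) and motor neurons (283), and Neat1 is highest in unclear neurons (102).

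Across 18 populations (9 cell types other than neurons, and the 9 sub-types) the levels as log2(CPM + 1) of Meg3 and Snhg11 had a Pearson r of 0.988, those of Meg3 and Mirg 0.970 and those of Snhg11 and Mirg 0.973. Malat1 and Neat1, neighbours on chromosome 19, had 0.642. These values describe the table, since the populations share mice, libraries and depth. Over single neuron nuclei the median Spearman rho of UMI shares over 12 mice was 0.358 for Meg3 and Snhg11. It was 0.203 for Meg3 and Mirg, and 0.028 for Malat1 and Neat1. This rho is another measure than the r above and is lowered by low counts per nucleus, so their sizes cannot be compared.

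Of 14083 genes compared over these 18 populations, the 3 with a profile most like that of Meg3 were Ppfia4 (r = 0.989), Snhg11 (0.988) and Hecw1 (0.985), and those like Snhg11 included Meg3, the ephrin receptor gene Ephb2 (0.985) and Hecw1 (0.984). Mirg was most like Gm20642 (0.994), the neuregulin gene Nrg3 (0.989) and Stxbp5l (0.989). Miat was most like Gm3772 (0.959), L3mbtl1 (0.958) and Gm26953 (0.957). Neat1 was most like Agmo (0.973), which encodes an enzyme of ether lipid breakdown, Zcchc24 (0.954) and Stxbp3 (0.951). For Malat1 the likeness was lower, with Gm17655 (0.914), the protease gene Bace2 (0.909) and Lrriq3 (0.882).

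To ask whether the SOD1G93A genotype changed the members, UMIs summed per mouse were compared with limma-voom in each population, averaged over sexes, with pool as a term and a false discovery rate (FDR, Benjamini-Hochberg over all genes of the population) below 0.1. In the 10 cell types 53 member tests could be made and 0 passed, against 0.568% of all 68984 gene tests. At an unadjusted p below 0.05 there were 3, against 7.18% of all gene tests. In the 9 sub-types 0 of 52 passed (0.0252% of all 75459 gene tests) and 8 had an unadjusted p below 0.05 (4.54% of all). The remaining member and population pairs, 7 in the cell types and 2 in the sub-types, were left out by the filter on low counts. Among the 105 tests the log2 fold change was positive in 46. edgeR's quasi-likelihood test passed 0 as well, and DESeq2 passed 2, Neat1 in neurons and in astrocytes.

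The log2 fold change of Malat1 lay between -0.17 and 0.24 over 19 populations, with 0.04 (SE 0.12) in neurons, and that of Meg3 between -0.67 (SE 0.63, in fibroblasts) and 0.32, with -0.06 (SE 0.07) in neurons. Snhg11 lay between -0.19 and 0.34 and Mirg between -0.14 and 0.40. In DE neurons Meg3 (-0.13, SE 0.06, limma FDR 0.718) and Snhg11 (-0.18, SE 0.08, FDR 0.691) were lower at an unadjusted p below 0.05. Mirg in neurons was nearly constant, with 179 to 194.7 CPM in WT mice (median 188) and 179 to 196 in SOD1G93A mice (median 190), and a log2 fold change of 0.00 (SE 0.06).

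The share of Malat1 in the UMIs of each nucleus, a common marker of nuclear purity, was compared as the median over the nuclei of a mouse with an exact two-sided permutation test within pools (216 arrangements, smallest possible p 0.00926) in the 8 cell types that all 12 mice contributed to. Among neurons it was 2.62% ± 0.905 (SD, n = 6, 1.72% to 3.64%) in WT mice and 2.64% ± 0.339 (2.30% to 3.17%) in SOD1G93A mice (exact permutation p = 0.972). The largest relative difference was in endothelial cells, with 3.49% ± 0.620 and 4.25% ± 0.794 (n = 6 each, exact permutation p = 0.148, adjusted 0.901 over the 8 types). For all 6 RNAs summed, the smallest p was again in endothelial cells (3.62% and 4.47%, exact permutation p = 0.130, n = 6 each, adjusted 0.991). In Schwann and meningeal nuclei the Malat1 share went down with depth, from 5.17% in the quartile with fewest UMIs to 2.55% in that with most, and a comparison of this type with others carries that dependence.

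**Figure D3:**
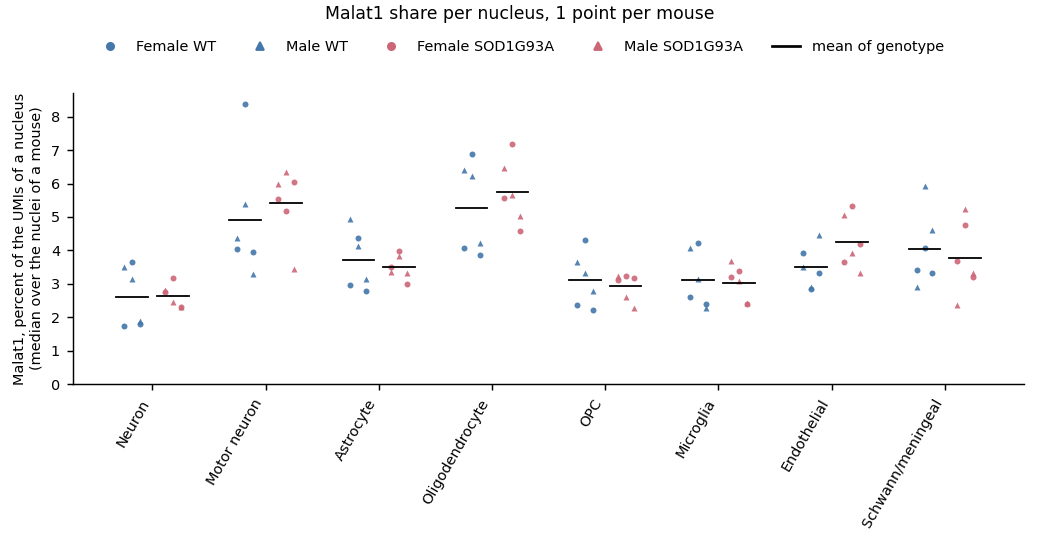
Malat1 share of the UMIs of a nucleus (y axis, percent, median over the nuclei of a mouse) in the 8 cell types with nuclei of all 12 mice, with 1 point per mouse and a bar at the mean of each genotype. WT and SOD1G93A mice overlap in all 8 types, and in neurons the means are 2.62% and 2.64%.

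Neat1 gave the smallest p values of the set, in opposite directions in neurons and astrocytes. In neurons the female WT mice of pools A, B and C had 45.6, 19.2 and 31.8 CPM and the male WT mice 29.8, 17.5 and 40.5. The female SOD1G93A mice had 82.0, 28.7 and 68.7 CPM and the males 40.5, 28.2 and 36.9. The SOD1G93A mouse was higher in 5 of the 6 pairs of the same sex and pool, while the groups overlapped. The log2 fold change was 0.59 (SE 0.13), with a limma FDR of 0.353 where 0.0255% of neuron genes passed, and DESeq2 gave an FDR of 0.0531. In astrocytes the WT mice had 470, 463 and 364 CPM (females) and 296, 305 and 384 (males), and the SOD1G93A mice 309, 251 and 370 and then 279, 317 and 305. Here 4 of 6 pairs were lower, with a log2 fold change of -0.38 (SE 0.12, limma FDR 0.125, where 2.29% of astrocyte genes passed). DESeq2 gave an FDR of 0.0988, and limma passed it when 1 mouse was left out, namely the pool C female WT (FDR 0.0916), the pool A female SOD1G93A (0.0934) or the pool B male SOD1G93A mouse (0.0795). Without other single mice it did not pass, with limma FDRs up to 0.355. The log2 fold change lay between -0.47 and -0.32 over all mice left out singly.

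Both effects entered 1 value per mouse, the log2 ratio of the Neat1 CPM in neurons to that in astrocytes, which was chosen after the opposite directions were seen and is given as a description. It was -3.69 ± 0.543 (SD, n = 6, -4.59 to -3.25) in WT mice and -2.80 ± 0.560 (n = 6, -3.49 to -1.91) in SOD1G93A mice. The groups overlapped only between -3.49 and -3.25. The difference between the means was 0.894, and whether the genotype effect differed between the types was not tested independently of that choice.

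Among the sub-types Neat1 was higher at an unadjusted p below 0.05 in DE (0.70, SE 0.20), DI (0.37, SE 0.16), VI (1.54, SE 0.37) and unclear neurons (0.64, SE 0.15), with limma FDRs of 0.331, 1.00, 0.300 and 0.348. In VE it had 0.38 (SE 0.30), in VC 0.28 (SE 0.37) and in MI -0.88 (SE 0.47), and in ME and VM it did not pass the count filter. In DE the level went from 26.9 CPM in WT (16.1 to 43.9) to 43.5 in SOD1G93A mice (24.6 to 74.3), higher in 6 of 6 pairs. In VI it went from 7.27 CPM (4.28 to 10.5) to 17.0 (0 to 45.8), on 145 Neat1 UMIs in all. With the pool A female WT mouse left out, limma passed Neat1 in DE (FDR 0.0619), VI (0.0251) and unclear neurons (0.000942). Leaving out 1 other mouse also passed it, in DE for the pool B female SOD1G93A (0.0700), in VI for the pool A female SOD1G93A (0.0777) and in unclear neurons for the pool C male WT mouse (0.0463). Without other single mice it did not pass, with limma FDRs up to 0.646 in DE, 0.999 in VI and 0.819 in unclear neurons. The lowest log2 fold changes without a single mouse were 0.49, 1.05 and 0.42 in these sub-types.

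**Figure D4:**
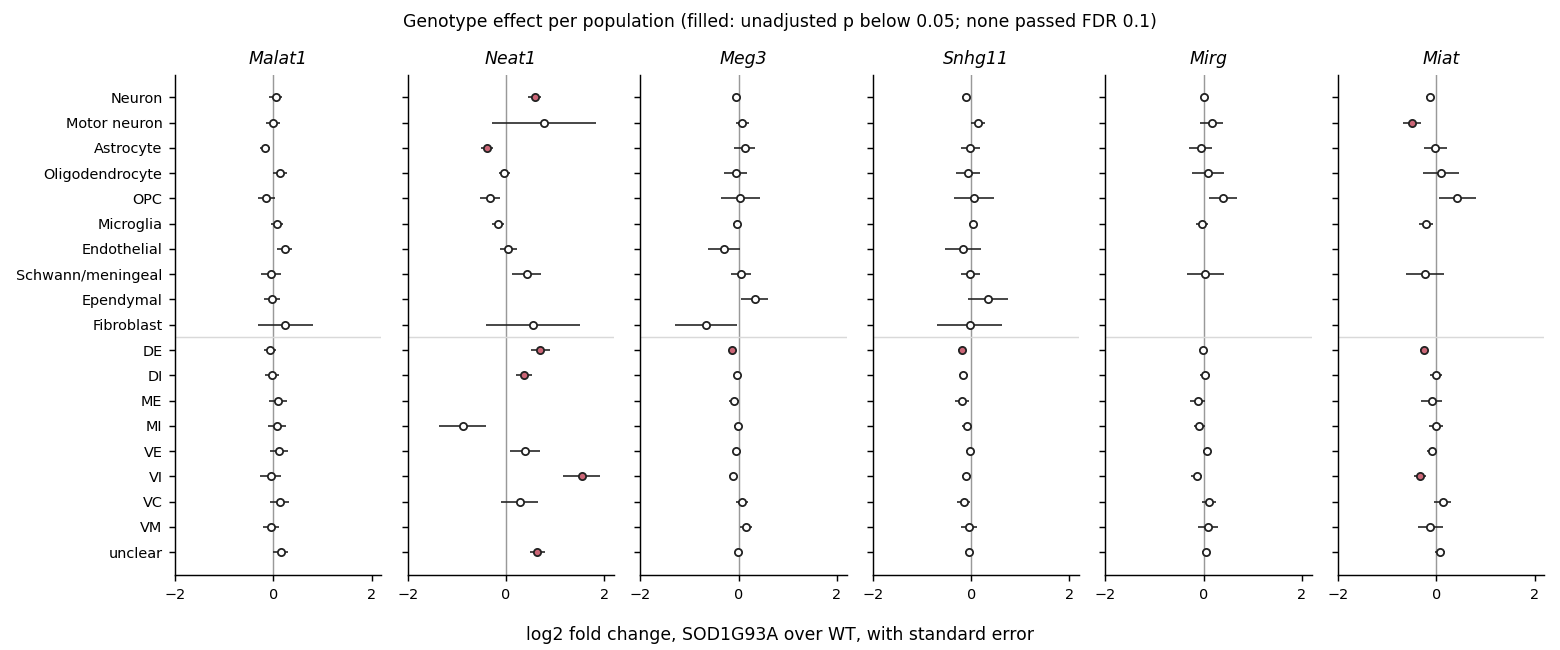
Log2 fold change of SOD1G93A over WT (x axis, with its standard error) of the 6 RNAs in the 10 cell types and, below the grey line, the 9 neuron sub-types. Filled points have an unadjusted p below 0.05 and none passed an FDR of 0.1, with Neat1 spread widest, from -0.88 in MI to 1.54 in VI.

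Neat1 in neurons was concentrated in few nuclei, which also held more UMIs and higher levels of the markers of several other cell types. Of 8800 neuron nuclei, 7364 had 0 Neat1 UMIs, 860 had 1, 336 had 2 to 4 and 240 had 5 or more, and the last class held 62.6% of the 4789 Neat1 UMIs. The classes are of raw counts, not shares, so that nuclei with more UMIs fall more readily into the higher classes. The oligodendrocyte markers Mbp, Mobp and Mog summed to 113, 189.9, 621 and 875 CPM in these classes. Astrocyte markers summed to 103, 127, 239 and 207 CPM, OPC markers to 414, 445, 476 and 537, microglial markers to 58.2, 60.5, 63.6 and 74.9 and endothelial markers to 7.10, 8.51, 16.1 and 15.7. Neuron markers went from 3388 to 2784 CPM and the median UMIs of a nucleus from 12219 to 40548. Unclear neurons made up 10.0% of the first class and 39.2% of the last.

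The oligodendrocyte markers also differed between the genotypes in the same direction as Neat1 in neurons. They summed to 208 CPM ± 54.1 (145.7 to 284) in WT mice and 274 ± 83.9 (189 to 395) in SOD1G93A mice, all 3 were higher at an unadjusted p below 0.05, and 0 of 3 passed FDR. The same held for all 3 in DE and in VI. In DI it held for 2 of 3 (Mog had 0.25, SE 0.19) and in unclear neurons for 1 of 3 (Mbp 0.34, SE 0.10, limma FDR 0.422), where Mobp had 0.44 (SE 0.23) and Mog 0.29 (SE 0.18). Among the markers of other cell types in neurons, Ptprc of microglia (0.92, SE 0.25, limma FDR 0.572) and Cspg4 of OPCs (0.64, SE 0.27, FDR 1.00) were also higher at an unadjusted p below 0.05, each 1 of 4 of its list, while the summed levels were 56.0 CPM (WT) and 56.4 (SOD1G93A) for microglia and 433 and 434 for OPCs. In DE the astrocyte marker Slc1a2 was higher at an unadjusted p below 0.05 (0.30, SE 0.13, limma FDR 0.714), 1 of 3 of its list, and in DI and VI 0 markers of other cell types than oligodendrocytes were below it. In unclear neurons Ptprc had 1.14 (SE 0.35, FDR 0.461), while the other 2 microglial markers tested had 0.16 (Cx3cr1, SE 0.24) and -0.09 (P2ry12, SE 0.20) and Aqp4 of astrocytes had -0.84 (SE 0.21, FDR 0.318). When neurons were split at the median share of the oligodendrocyte markers (a split added after the values were seen), the log2 fold change of Neat1 was -0.09 (SE 0.20, limma FDR 1.00) in the 4400 nuclei below it, which held 605 Neat1 UMIs, and 0.54 (SE 0.11, FDR 0.184) in the 4400 at or above it, which held 4184. These markers rose with Neat1 over nuclei and differed between the genotypes, so the split cannot decide where the Neat1 difference came from. With unclear neurons left out the log2 fold change of Neat1 was 0.53 (SE 0.14, FDR 0.526) in 7757 nuclei. Within astrocytes, where oligodendrocyte markers were higher in SOD1G93A mice (1326 CPM, 932 to 1783) than in WT mice (903, 685 to 1109) and 1 of 3 passed (Mbp 0.50, SE 0.11, limma FDR 0.0247), Neat1 was lower both below the median (-0.48, SE 0.15, FDR 0.186) and at or above it (-0.20, SE 0.13, FDR 0.672). The other 2 had 0.38 (Mobp, SE 0.13, FDR 0.198) and 0.00 (Mog, SE 0.18) in astrocytes, where Vcan of OPCs (0.82, SE 0.28, FDR 0.175) and Rbfox3 of neurons (0.53, SE 0.20, FDR 0.228) were also higher at an unadjusted p below 0.05. None of the 3 oligodendrocyte markers was at 0 in either type.

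In unclear neurons the genotype effect of Neat1 differed between the sexes, the only 1 of 105 member tests of this difference that passed (0.0436% of all gene tests in the 19 populations did so). Female WT mice had 120, 28.1 and 45.8 CPM in pools A, B and C and female SOD1G93A mice 251, 81.7 and 204. Male WT mice had 108, 36.006 and 127 CPM and male SOD1G93A mice 101, 30.9 and 91.8. The female SOD1G93A mouse was higher in all 3 pools and the male lower in all 3. The difference (male minus female) was -1.79 on the log2 scale (SE 0.30, limma FDR 0.0425), where 0.459% of the genes of this sub-type passed. Neat1 ranked 8 by p among the 51 genes that passed, 47 of them with a lower and 4 with a higher effect in males. Mbp was another of the 47 (-1.14, SE 0.20, FDR 0.0223). So were further genes of oligodendrocytes, among them Cldn11 (-1.48, FDR 0.0570), Mag (-1.16, FDR 0.0574) and Sox10 (-2.61, FDR 0.0574). Mog (-1.45, SE 0.37, limma FDR 0.224) and the OPC markers Pdgfra (-4.63, SE 1.26, FDR 0.260) and Vcan (-1.77, SE 0.70, FDR 0.636) also had lower effects in males at an unadjusted p below 0.05, so that 2 of 3 oligodendrocyte and 2 of 3 OPC markers did so. Mobp had -0.96 (SE 0.45) and Tnr -0.11 (SE 0.27).

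Few nuclei held most of these UMIs. In the female SOD1G93A mouse of pool A there were 27 unclear nuclei, and 5 of them held 94.2% of its 223 Neat1 UMIs. The oligodendrocyte markers of unclear neurons were 561, 187 and 293 CPM in female WT mice, 936 (pool A), 303 and 754 in female SOD1G93A mice, 592, 262 and 624 in male WT mice and 581, 312 and 366 in male SOD1G93A mice. The female SOD1G93A mouse was thus higher in all 3 pools, and the male lower in pools A and C but higher in B. In the nuclei at or above the median marker share the difference in Neat1 did not pass (-1.20, SE 0.28, limma FDR 0.2496), and below it Neat1, with 78 UMIs, was too low to be tested. The part of RNA of oligodendrocytes and other glia in the Neat1 differences of neurons was not tested. Over all unclear neurons edgeR (-1.75, FDR 0.0260) and DESeq2 (-1.73, FDR 0.000657) passed it too. The limma call was lost when the pool A female (-1.82, FDR 0.189), the pool C female (-1.79, FDR 0.141) or the pool A male SOD1G93A mouse (-1.64, FDR 0.288) was left out, and with the pool term left out (-1.72, FDR 0.997).

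**Figure D5:**
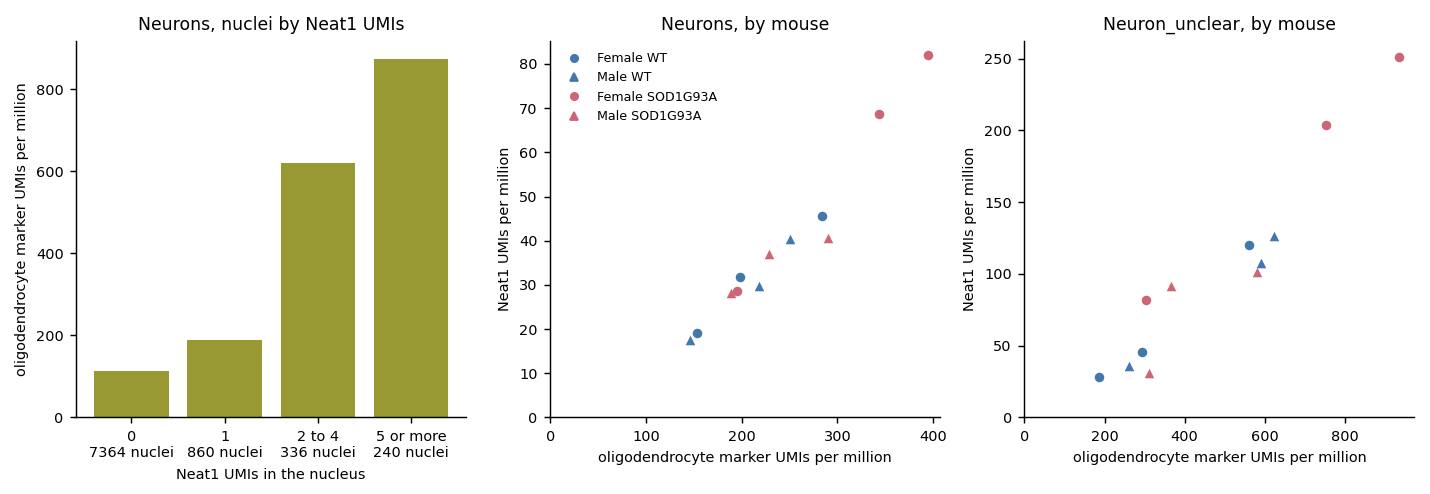
Left, oligodendrocyte marker CPM (y axis) in neuron nuclei by their number of Neat1 UMIs (x axis). Middle and right, Neat1 CPM (y axis) against oligodendrocyte marker CPM (x axis) in neurons and in unclear neurons, with 1 point per mouse. Markers are Mbp, Mobp and Mog, whose levels run from 113 to 875 over the 4 classes, and the female SOD1G93A mice of pools A and C have the highest values of both measures.

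Miat, the motor neuron-rich member, was lower in SOD1G93A motor neurons at an unadjusted p below 0.05. The female WT mice of pools A, B and C had 255, 403 and 343 CPM and the males 320, 319 and 278. The female SOD1G93A mice had 205, 292 and 217 CPM and the males 311, 266 and 192. The SOD1G93A mouse was lower in 6 of 6 pairs, though the groups overlapped between 255 and 311 CPM. The log2 fold change was -0.49 (SE 0.18, limma FDR 0.178), in a type where 3.07% of genes passed, on 1 to 11 nuclei per mouse. Of the other markers in motor neurons, 0 of 3 of oligodendrocytes were at an unadjusted p below 0.05, whereas Tnr, the only OPC marker tested there, was lower (-0.53, SE 0.16, limma FDR 0.110) and Rbfox3 of neurons had -0.46 (SE 0.22, FDR 0.321). The 4 OPC markers summed to 1402 CPM in WT (1063 to 1646) and 1052 in SOD1G93A motor neurons (807 to 1255). This sum also differed between kinds of neurons, with 1227 CPM in motor neurons over all mice and 433 in neurons. Among the sub-types it went from 252 CPM in DI to 729 in ME, and in OPC nuclei it was 3842. Miat itself had 47.6 CPM in OPC nuclei, against 283 in motor neurons. The part of OPC RNA in the Miat values was not tested. Miat was also lower in 6 of 6 pairs in DE (109 to 91.5 CPM, -0.25, SE 0.08, FDR 0.383) and in VI (138 to 111 CPM, -0.33, SE 0.12, FDR 1.00), whereas in DI it was 40.9 CPM in WT and 41.1 in SOD1G93A mice. In unclear neurons the SOD1G93A mouse was higher in 5 of 6 pairs (109 to 115 CPM, 0.08, SE 0.10, FDR 0.982), in VC it was higher in 3 of 6 (0.13, SE 0.17), and in ME, MI, VE and VM the log2 fold change lay between -0.12 and 0.00. These sub-types hold different nuclei of the same mice.

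Neat1 in motor neurons rested on 183 UMIs. The WT mice had 10.1 to 108 CPM (median 17.5) and the SOD1G93A mice 0 to 143 (median 49.7). In the male WT mouse of pool A, 42 of its 50 Neat1 UMIs came from 1 nucleus. The log2 fold change of 0.77 had an SE of 1.06. It passed when the pool A male SOD1G93A mouse was left out (1.67, SE 0.38, limma FDR 0.0473), and it turned to -0.10 (SE 1.86, FDR 0.994) and -0.05 (SE 0.88, FDR 0.988) when the pool A female or the pool C male SOD1G93A mouse was left out. Without the pool A male WT mouse it was 1.87 (SE 0.83, FDR 0.314) and without the pool B female SOD1G93A mouse 1.24 (SE 1.19, FDR 0.694).

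Between the sexes 0 of 53 member tests in the cell types passed limma's FDR of 0.1 (0.159% of all gene tests did), with edgeR and DESeq2 also at 0, and 5 had an unadjusted p below 0.05 (5.56% of all). Female minus male, these were Neat1 in neurons (0.43, SE 0.13, FDR 1.00) and OPCs (0.52, SE 0.21, FDR 0.377), Malat1 in astrocytes (-0.20, SE 0.09, FDR 0.883), and Miat (-1.03, SE 0.39, FDR 0.637) and Mirg (-1.14, SE 0.37, FDR 0.508) in Schwann and meningeal nuclei. In the Schwann and meningeal nuclei a mouse had as few as 14464 UMIs. Males of pool B stood out there, with Miat at 203 CPM in the SOD1G93A mouse (20.7 to 50.4 in the other SOD1G93A mice). Mirg was at 207 CPM in the WT mouse (0 to 73.1 in the other WT mice).

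A further 3 lists of related genes were read beside the members. Of 25 other long non-coding RNAs 13 had a row, 12 were tested in neurons, 7 in motor neurons and 9 in astrocytes, and 2 passed, both in motor neurons, where 3.07% of all genes passed. Pantr1, a neighbour of the neuronal factor gene Pou3f3, fell from 94.8 CPM (67.2 to 115) in WT to 39.9 (19.5 to 62.7) in SOD1G93A mice (-1.24, SE 0.32, limma FDR 0.0579), with no overlap. Ftx, an X-linked RNA of the Xist region, rose from 51.7 CPM (30.1 to 75.3) to 114 (62.7 to 181), with a log2 fold change of 0.89 (SE 0.23, FDR 0.0632) and groups that overlapped between 62.7 and 75.3 CPM. In neurons the smallest p values were those of Snhg6 (-0.53, FDR 1.00) and Tug1 (0.18, FDR 1.00), and in astrocytes those of Pvt1 (-0.23, FDR 0.533) and Snhg20 (-0.41, FDR 0.556). The list medians were -0.03 in neurons, 0.13 in motor neurons and -0.01 in astrocytes, against 0.00, 0.00 and 0.02 over all genes.

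All 20 paraspeckle and nuclear speckle protein genes that were read had a row, and 0 passed in any cell type, with limma. In astrocytes Tardbp, which encodes TDP-43, was 49.3 CPM (45.4 to 54.9) in WT and 74.3 (50.9 to 107) in SOD1G93A mice (0.50, SE 0.16, FDR 0.144), followed by the RNA-binding protein gene Hnrnpk (0.27, FDR 0.425). In motor neurons Hnrnpk had 0.68 (FDR 0.296) and Son, a core speckle protein gene, 0.33 (FDR 0.452), and in neurons the smallest p values were those of Qk (0.29, FDR 1.00), an RNA-binding protein gene of oligodendrocytes, and Hnrnpk (-0.10, FDR 1.00). The medians were -0.01 in neurons, 0.19 in motor neurons and -0.03 in astrocytes.

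Of the 5 protein-coding genes of the Dlk1-Dio3 region, the neighbours of Meg3 and Mirg, 0 passed in any cell type. In motor neurons Begain, a postsynaptic protein gene, was 46.7 CPM (36.8 to 65.3) in WT and 19.3 (0 to 42.9) in SOD1G93A mice (-0.95, SE 0.40, limma FDR 0.243), and Rtl1, a retrotransposon-derived paternally expressed gene, had 0.42 (FDR 0.577). In neurons Dlk1 (-0.03) and Rtl1 (-0.03) had FDRs of 1.00, and in astrocytes Begain (0.26, FDR 0.766) and Wdr25 (-0.04, FDR 0.963) were not called. At an unadjusted p below 0.05, motor neurons had 1 of 3 genes of this list, 3 of 7 of the other long non-coding RNAs and 1 of 16 of the speckle list, against 15.9% of all genes of this type.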

How the data were processed

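Nuclei of 12 mice were measured in 3 hashtagged pools. The authors made the deposited counts, UMIs per gene and nucleus without normalization, with Cell Ranger 3.1 (STAR 2.5.1b) on a pre-mRNA mm10 reference, and assigned mice by hashtag and types from Seurat clusters and a reference. Mitochondrial percent was deposited by the authors, with a maximum of 9.99. Doublets within 1 mouse are not marked. Genotypes are those of the deposited sample table. Here UMIs were summed per mouse and population (27 neurons without sub-type left out of sub-types), filtered with filterByExpr (minimum count 10), scaled with TMMwsp and fitted with limma 3.58.1 (voom, robust eBayes) under R 4.3.3, with terms for sex and genotype group and pool. Alternatives were edgeR 4.0.16, DESeq2 1.42.0, other scalings and filters, no pool term and each mouse left out. The fits were tested on simulated data. Some genes of the lists are not reported here and were left out of their sums and counts. Members and lists were chosen with earlier results of these data known. Named genes were the members in every population, list genes past FDR 0.1 or else the 2 of smallest p in neurons, motor neurons and astrocytes, and the 3 genes most like each member. Any other gene was chosen after its values were seen. The number of nuclei and UMIs of a type limits the precision. SDs are over mice and SEs are those of the limma fits over mice, whereas the limits given for Miat cover counting error only.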

Additional observations from a re-analysis of the deposited data

Results flagged for a closer look

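Among 128 groups of 6 mice, 10 (7.81%) held a mouse whose gap to the nearest other mouse exceeded Dixon's critical ratio of 0.625, where chance gives about 1 in 20. For Neat1 these were the male WT mouse of pool A in motor neurons (108.22 CPM, others 10.1 to 41.9) and in microglia (503.98 CPM, others 369 to 401), and the male WT mouse of pool B in Schwann and meningeal cells (207.41 CPM, others 60.8 to 113). For Miat they were the female SOD1G93A mouse of pool B in oligodendrocytes (39.814 CPM, others 12.3 to 20.5), the female WT mouse of pool A in microglia (128.31 CPM, others 67.9 to 84.5) and the male SOD1G93A mouse of pool B in Schwann and meningeal cells (202.86 CPM, others 20.7 to 50.4). Snhg11 in motor neurons was low in the female SOD1G93A mouse of pool A (2161.6 CPM, others 3010 to 3435), which had 2 motor neuron nuclei. Mirg in Schwann and meningeal cells was high in the male WT mouse of pool B (207.41 CPM, others 0 to 73.1). This value and that of Neat1 in the same mouse and type each rested on 3 UMIs among 14464, from 13 nuclei. The summed share of the 6 RNAs in motor neuron nuclei was high in the female WT mouse of pool B (9.6803%, others 4.12% to 6.14%) and low in the male SOD1G93A mouse of pool C (4.7372%, others 6.56% to 7.42%).

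The genotype effect of Neat1 in unclear neurons differed between males and females by the test of the difference itself, with -1.786 on the log2 scale (limma FDR 0.0425). The interaction of sex and genotype was added after the values were seen.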

How the results depend on the processing

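Calls of the genotype effect at FDR below 0.1 stayed at 0 of 53 in the cell types under 15 of 20 alternatives. DESeq2 gave 2 (Neat1 in neurons and astrocytes), and leaving out single mice gave 0 to 1 (Neat1, in astrocytes in 3 cases and in motor neurons when the pool A male SOD1G93A mouse was left out). In the sub-types leaving out single mice gave 0 to 3 calls, all of Neat1 and with 3 when the pool A female WT mouse was left out, and the other alternatives gave 0. The sex effect stayed at 0 under all 20 alternatives, and the share tests of Malat1 and of all 6 RNAs at 0 under all 16. The number of sex-by-genotype calls was 1, but 3 with no count filter, 0 with no replicate block (pool term left out) and 0 to 1 without single mice. That of Neat1 in unclear neurons was -1.7221 with no replicate block (FDR 0.997) and -2.1404 to -1.3556 without single mice, and -1.1992 (FDR 0.2496) in the nuclei at or above the median oligodendrocyte marker share. Neat1 in neurons had -0.088837 (SE 0.20) in the nuclei below that median share in neurons, which held 605 of the 4789 Neat1 UMIs. These changes were not tested for a cause. Unscaled library sizes moved the median of all genes by -0.185 in fibroblasts and 0.138 in motor neurons. They turned the sign of 10 of 105 member effects, none larger than 0.0602 in size. For the levels, 6 of 6 members kept their highest and lowest type with Malat1 left out of the total and 3 with TMMwsp scaling, where oligodendrocytes were highest for Malat1 (60517) and Neat1 (654.64), and neurons for Mirg (232.68). Few nuclei limit motor neurons (67), ependymal cells (93) and fibroblasts (46), of which the last 2 also had few UMIs (252050 and 214721).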
